A study of Mus musculus with 12 samples.

Results

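The genes described here are 40 genes of glycolysis and of the response to low oxygen. They were taken by name from a list that was drawn up with earlier results of these data known. Of the 40, 39 were found by their symbol among the 21853 genes of the table, and the symbol *Pkm2* was absent. They comprise 4 transporters of glucose and lactate, 16 glycolytic enzymes (of 17 listed), 3 regulators of glycolysis, 3 genes of oxygen sensing and 13 other hypoxia genes. RNA-seq covered 12 libraries of CommaDβ cells, a mouse mammary epithelial line, with 3 libraries in each of 4 groups. Sca-high 34a cells carried pSliK34a, a lentiviral vector that expresses miR-34a under doxycycline, and had been induced for 24 h. Sca-high NT cells carried the same vector and were left uninduced. Sca-high and Sca-low cells without the vector are the fractions of the line sorted by FACS for high and low Sca-1 (*Ly6a*), the Sca-high fraction being called undifferentiated and the Sca-low fraction differentiated in the study design. All 4 groups come from a single line, no library of doxycycline without the vector was analysed here, and the effect of doxycycline and that of miR-34a cannot be told apart. The labels do not tell whether libraries of a group stem from separate cultures. The p-values weigh differences between groups against the spread among these libraries. That spread may be only technical, in which case the p-values would be too small.

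Glycolysis splits glucose into pyruvate in the cytosol. Glucose enters through transporters of the Slc2a (Glut) family, hexokinase traps it as a phosphate, and phosphofructokinase commits it to the pathway. Aldolase then cuts the 6-carbon sugar, the lower enzymes make ATP, and lactate dehydrogenase turns pyruvate into lactate, which leaves through monocarboxylate transporters of the Slc16a family. Hif1α, the oxygen-regulated transcription factor, is marked for destruction by the prolyl hydroxylases Egln1 and Egln3 while oxygen is present. When it is stable it binds the hypoxia response element, with the core ACGTG or GCGTG, and raises transcription of most glycolytic genes and of genes for vessel growth, collagen hydroxylation and mitophagy. The abundance of *Hif1a* mRNA does not report the activity of the protein, which is set mainly by its stability.

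Levels below are scaled RPKM (reads scaled by gene length and library depth, after a trimmed-mean rescaling of each library), and fold changes are on the scale of log2(scaled RPKM + 0.1), which understates the change of low genes. A gene was called when the adjusted p of limma was below 0.01 and the absolute log2 fold change was above 0.50, over 10586 tested genes. The depth was 33668289 to 41828931 reads per library. *Mir34a* was read 632 to 1137 times in Sca-high 34a libraries, 3 to 8 times in Sca-high NT libraries, 0 to 3 times in Sca-high libraries and 0 to 4 times in Sca-low libraries, as the titles of the libraries have it, whereas the genotype tag gives induced and uninduced the other way round. *Ly6a* had 9.93 to 13.4 RPKM in Sca-high libraries, against 0.995 to 1.88 RPKM in Sca-low libraries. The luminal markers *Krt8*, *Krt18*, *Krt19* and *Epcam* summed to 12.7 to 15.0 RPKM in Sca-high libraries, against 746 to 801 RPKM in Sca-low libraries, and the basal markers *Krt5*, *Krt14*, *Trp63* and *Acta2* to 1266 to 1574 RPKM, against 324 to 398 RPKM. Sums of fibroblast markers reached at most 1.77 RPKM, of endothelial markers 0.0922 RPKM and of immune markers 1.67 RPKM in any library. Library 3 (Sca-high) and library 12 (Sca-high 34a) stood apart when libraries were compared in pairs. Within groups, the chi-square per gene of a pair was 45.9 to 118 in the 4 pairs that include either of them and 9.12 to 27.5 in the remaining 8. By other measures libraries 1 and 2 (Sca-high) differed from the rest. Their deposited RPKM summed to 206097 and 200705, against 222954 to 260260 elsewhere. Reads without a symbol made up 0.0942% and 0.0922%, against 0.05% to 0.0657% elsewhere. Leaving out libraries 3 and 12 keeps both.

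The miRNA that was induced and the stretches of DNA that a hypoxia response would read are shown first, because the results below are described beside them. Mature miR-34a-5p lies at chr4:150068473-150068494 on the plus strand (RefSeq, GRCm38.p6), and the capitals mark its seed, bases 2 to 8.
mmu-miR-34a-5p: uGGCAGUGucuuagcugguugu
The 3′ UTRs of the members were searched for matches to this seed, CACTGCC or ACTGCCA, in the longest annotated 3′ UTR of each gene (GENCODE vM21, GRCm38). This search was added after the data had been seen. Sites were found in 17 of 39 members (43.6%), against 2371 of 10209 tested genes (23.2%), and the median length of the UTR was 1263 bases in the members and 1185 bases in tested genes. *Aldoa*, *Ldha* and *Pdk1* carried the 8-base match CACTGCCA, shown in capitals within 30 bases of the UTR. The sites lie at chr7:126795245-126795274 on the minus strand for *Aldoa*, at chr7:46855339-46855368 on the plus strand for *Ldha* and at chr2:71903099-71903128 on the plus strand for *Pdk1*.
Aldoa site: cccttccagccCACTGCCAataaacaacta
Ldha site: tctctgagacaCACTGCCAactgcaggctt
Pdk1 site: cttttctaataCACTGCCAatgattgacat

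Promoters were taken as the 250 bases before to 50 bases after each start site (RefSeq, GRCm38.p6), and 36 members matched, with 53 promoters. The core of the hypoxia response element was searched on both strands as ACGTG and GCGTG. At least 1 core stood in 33 of the 36 genes (91.7%), against 70.1% of 8412 tested genes and 46.7% of all 27025 genes with a promoter. ACGTG stood in 54.7% of the members' promoters, 26.2% of those of tested genes and 19.6% of all promoters. A stretch CACGTG reads as ACGTG on both strands and is also an E-box, the site of Myc and other bHLH factors, so the same letters serve more than 1 family of factors, and a match is a description and not a binding site. Promoters of 4 members that the comparisons below turn on are printed with the cores in capitals. They are the lactate exporter *Slc16a3* (chr11:120948817-120949116, plus strand), *Ldha* (chr7:46845554-46845853, plus strand), *Egln3* (chr12:54203825-54204124, minus strand) and *Aldoc* (chr11:78322823-78323122, plus strand).
Slc16a3 promoter: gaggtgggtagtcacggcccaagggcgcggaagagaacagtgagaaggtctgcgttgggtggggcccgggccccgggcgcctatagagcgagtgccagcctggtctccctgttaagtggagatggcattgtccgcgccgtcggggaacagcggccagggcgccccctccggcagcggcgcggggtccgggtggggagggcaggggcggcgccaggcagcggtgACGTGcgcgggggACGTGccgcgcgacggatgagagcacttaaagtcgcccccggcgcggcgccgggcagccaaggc
Ldha promoter: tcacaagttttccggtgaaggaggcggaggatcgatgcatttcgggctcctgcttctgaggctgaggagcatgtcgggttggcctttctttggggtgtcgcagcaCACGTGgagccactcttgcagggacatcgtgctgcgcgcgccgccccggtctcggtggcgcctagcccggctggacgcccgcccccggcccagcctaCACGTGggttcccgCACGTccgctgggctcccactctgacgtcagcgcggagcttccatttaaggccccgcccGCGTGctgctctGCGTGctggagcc
Egln3 promoter: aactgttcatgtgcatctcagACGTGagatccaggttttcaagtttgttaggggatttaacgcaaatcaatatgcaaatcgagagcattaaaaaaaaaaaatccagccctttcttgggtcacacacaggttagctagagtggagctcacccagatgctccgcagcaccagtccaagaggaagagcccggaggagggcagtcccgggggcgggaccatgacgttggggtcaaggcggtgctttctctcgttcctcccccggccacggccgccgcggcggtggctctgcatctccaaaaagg
Aldoc promoter: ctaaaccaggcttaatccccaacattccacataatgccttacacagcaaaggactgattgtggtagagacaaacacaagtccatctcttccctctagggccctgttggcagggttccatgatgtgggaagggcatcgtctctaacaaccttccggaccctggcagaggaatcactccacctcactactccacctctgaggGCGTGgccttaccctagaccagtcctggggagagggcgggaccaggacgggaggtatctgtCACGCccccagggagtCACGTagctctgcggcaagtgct
*Ldha* held the most stretches of these, 5, at -145, -48, -34, 26 and 38 from the start site. *Slc16a3* held 2, at -27 and -14, *Egln3* held 1, at -229, and *Aldoc* held 3 in this promoter.

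Sca-high cells had higher levels of most of these genes than Sca-low cells. Of 34 tested members, 26 were higher in Sca-high cells and 1 was lower, against 19.9% and 20.4% of all tested genes called higher and lower. The median log2 fold change of the members was 1.00, against -0.00 for all tested genes. The other 5 members found (*Slc2a3*, *Ldhb*, *Pfkfb3*, *Car9* and *Adm*) were too low in most libraries to be tested. The glycolytic enzymes had a median of 0.70, with 11 of 15 higher, and the other hypoxia genes a median of 1.62, with 9 of 11 higher and 1 lower. The difference between the roles was not tested. Sca-high cells also differed from Sca-low cells in the basal and luminal markers given above, and the part of these in the result was not tested. Without libraries 3 and 12, 24 of 33 tested members were higher and 1 was lower.

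**Figure D1:**
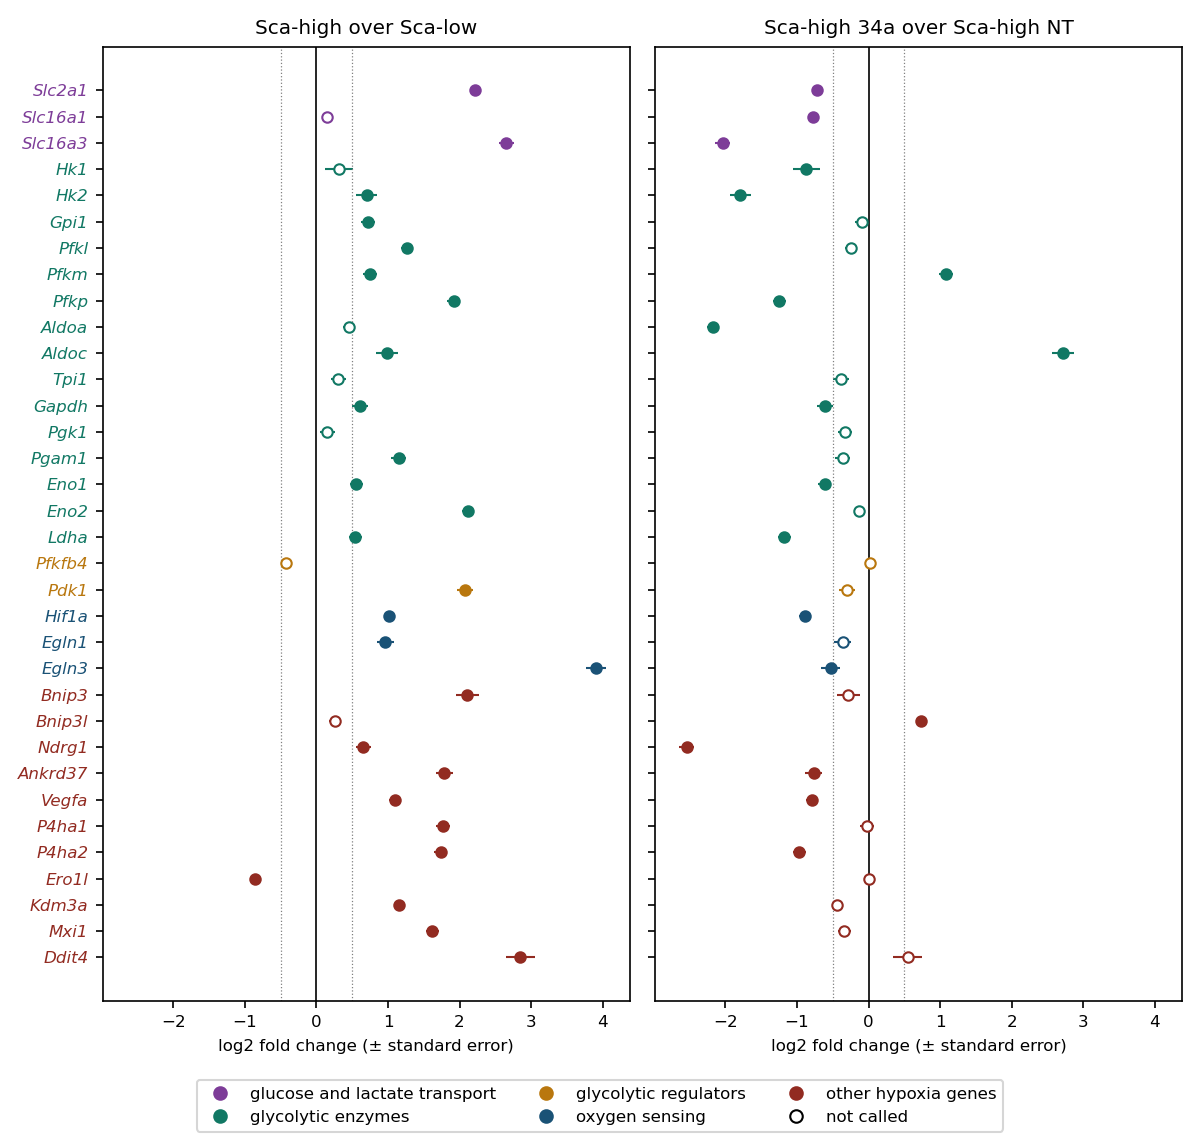
Log2 fold change (x axis, with its standard error) of the 34 tested members, grouped by role, for Sca-high over Sca-low cells (left) and Sca-high 34a over Sca-high NT cells (right). Filled points passed both thresholds, and dotted lines mark a log2 fold change of 0.50 in each direction; on the left 26 filled points lie right of 0 and 1 left, and on the right 3 lie right and 16 left.

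Among the transporters, *Slc2a1*, which encodes the basal glucose transporter Glut1, had 54.8, 54.4 and 62.4 RPKM in Sca-high libraries, against 13.3, 11.3 and 11.99 RPKM in Sca-low libraries. The groups lay far apart, with a log2 fold change of 2.22 (SE 0.08, adjusted p = 3.1e-10). *Slc16a3* (Mct4), the lactate exporter of glycolytic cells, had 4.35, 4.07 and 5.31 RPKM in Sca-high libraries, against 0.718, 0.597 and 0.609 RPKM in Sca-low libraries. It was low in both groups but 6.29-fold higher in Sca-high cells (log2 2.65, SE 0.10, adjusted p = 7.3e-10). *Slc16a1* (Mct1), which carries lactate in either direction, had 23.5 ± 1.83 RPKM in Sca-high and 21.1 ± 0.532 RPKM in Sca-low libraries (SD, n = 3 each) and was not called.

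In the upper pathway the isozymes of a step differed in level and in size of change. The difference was large for the platelet-type phosphofructokinase gene *Pfkp*, with 3.78, 3.84 and 3.97 RPKM in Sca-high libraries, against 1.09, 0.829 and 0.943 RPKM in Sca-low libraries (log2 1.92, SE 0.09, adjusted p = 3.4e-09). The more abundant liver-type gene *Pfkl* averaged 30.4 ± 3.16 RPKM in Sca-high and 12.5 ± 0.849 RPKM in Sca-low libraries (SD, n = 3 each), and *Pfkm* 5.38 ± 0.161 and 3.16 ± 0.140 RPKM. *Hk2*, the inducible hexokinase, was higher (log2 0.70, SE 0.15, adjusted p = 0.0016), while *Hk1* (log2 0.31) was not called. Of the aldolases, *Aldoa* averaged 274 ± 24.0 RPKM in Sca-high and 200 ± 11.7 RPKM in Sca-low libraries and stayed under the fold threshold (log2 0.45, adjusted p = 0.00043), and the scarce *Aldoc* was higher (log2 0.99). *Gpi1*, which isomerises glucose phosphate, was higher by 0.72.

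The lower pathway held the most abundant members. *Pgk1* had 352, 364 and 454 RPKM in Sca-high libraries, against 363, 334 and 348 RPKM in Sca-low libraries, so that the groups overlapped. *Tpi1* (log2 0.31) was not called either. *Pgam1*, the phosphoglycerate mutase, had 388, 450 and 464 RPKM in Sca-high libraries, against 200, 181 and 205 RPKM in Sca-low libraries (log2 1.15, SE 0.11, adjusted p = 1.7e-06). *Gapdh*, often taken as a reference gene, averaged 359 ± 43.7 RPKM in Sca-high and 235 ± 17.5 RPKM in Sca-low libraries (log2 0.61, SE 0.11, adjusted p = 0.0004). *Ldha*, which makes lactate, had 373, 346 and 432 RPKM in Sca-high libraries, against 275, 253 and 259 RPKM in Sca-low libraries. It lay just past the fold threshold (log2 0.54, SE 0.09, adjusted p = 0.00021) and stood at 0.47 without library 3 and at 0.49 without library 5, which ends the call. The call of *Ldha* also ended with median of ratios scaling, with no filter, and without libraries 3 and 12 together. *Eno2*, the neuronal enolase, was far lower in level but differed more, with 1.55, 1.44 and 1.45 RPKM in Sca-high libraries, against 0.268, 0.245 and 0.283 RPKM in Sca-low libraries (log2 2.11). It reached 1 RPKM in no library outside the Sca-high group. *Eno2* thus passed the filter, and stands among the 26 called higher, only through the group where it was high. *Eno1* (log2 0.56, and 0.49 without library 6, which ends the call) is uncertain, because its near-identical copy *Eno1b*, at 24.1 ± 2.90 RPKM in Sca-high and 23.0 ± 1.42 RPKM in Sca-low libraries, held most of the reads. *Eno1* also lost the call with no filter and with a pseudocount of 1. Several glycolytic genes, *Gapdh* among them, also have processed pseudogenes that could take or give reads. *Pdk1*, whose product blocks the entry of pyruvate into the TCA cycle, had 3.88, 4.56 and 4.87 RPKM in Sca-high libraries, against 1.10, 0.828 and 0.994 RPKM in Sca-low libraries (log2 2.08, SE 0.11, adjusted p = 1.3e-08). *Pfkfb4*, which makes and breaks fructose 2,6-bisphosphate, was not called (log2 -0.42).

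The oxygen-sensing genes were all higher in Sca-high cells. *Egln3*, itself a target of Hif1α, showed the largest difference among the tested members, with 14.7, 14.2 and 13.2 RPKM in Sca-high libraries, against 1.14, 0.728 and 0.711 RPKM in Sca-low libraries. Its log2 fold change was 3.91 (SE 0.14, adjusted p = 2.7e-10), or 15.0-fold. *Hif1a* had 27.2, 30.1 and 31.7 RPKM in Sca-high libraries, against 15.0, 14.8 and 14.0 RPKM in Sca-low libraries (log2 1.02, SE 0.08, adjusted p = 3e-07). *Egln1*, the main sensor in most cells, was higher by 0.96.

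Of the other hypoxia genes, *Ddit4* (Redd1, an inhibitor of mTORC1) had 24.6, 16.6 and 20.1 RPKM in Sca-high libraries, against 2.79, 2.87 and 2.50 RPKM in Sca-low libraries (log2 2.85, SE 0.21, adjusted p = 1.8e-07). The mitophagy gene *Bnip3* was higher (log2 2.11), with 27.0, 35.0 and 37.7 RPKM in Sca-high libraries, against 8.38, 7.05 and 7.29 RPKM in Sca-low libraries, while its relative *Bnip3l* (log2 0.25) was not called. The collagen prolyl hydroxylases *P4ha1* and *P4ha2* were higher by 1.77 and 1.74, the ankyrin-repeat gene *Ankrd37* by 1.79 and *Mxi1*, an antagonist of Myc, by 1.62. *Kdm3a*, a histone demethylase, *Vegfa*, the main growth factor of vessels, and *Ndrg1* were higher by 1.15, 1.09 and 0.65. The exception was *Ero1l*, an oxidase for disulphide bonds in the endoplasmic reticulum, with 8.81, 9.26 and 8.42 RPKM in Sca-high libraries, against 15.8, 16.6 and 15.8 RPKM in Sca-low libraries. It was lower in each Sca-high library than in any Sca-low library (log2 -0.86, SE 0.06, adjusted p = 8.9e-08).

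Neighbouring pathways were counted in the same way, in 5 lists with 107 genes, beside the 19.9% of all tested genes that were higher and the 20.4% that were lower. Among 20 tested genes of pyruvate entry and the TCA cycle, Sca-high cells had 1 higher and 5 lower, and of 10 of the pentose phosphate pathway and gluconeogenesis, 1 was higher and 4 were lower. *Pdhb*, a subunit of pyruvate dehydrogenase, had 9.07, 9.12 and 10.1 RPKM in Sca-high libraries, against 21.2, 20.9 and 20.7 RPKM in Sca-low libraries (log2 -1.14, SE 0.06, adjusted p = 6.6e-09). *G6pc3*, a glucose-6-phosphatase, was lower by 1.33 on the log2 scale, and *Mdh2* and *Pcx* were the only genes called higher in these 2 lists (log2 1.20 and 0.84). With a pseudocount of 1 *Pcx* lost the call. Of 12 tested genes on a list of other glycolysis isozymes, regulators and members of their gene families, 6 were higher and 3 were lower. *Slc2a9* (log2 2.13) and *Pgam5* (log2 -0.76) stood at the ends. Both are listed by family name, and a part of theirs in glycolysis was not tested. Of 31 other hypoxia targets, 15 were higher and 9 lower. *Car12*, a carbonic anhydrase at the cell surface, had 36.1, 39.3 and 39.8 RPKM in Sca-high libraries, against 5.06, 3.98 and 4.36 RPKM in Sca-low libraries (log2 3.08), and *Errfi1*, an inhibitor of Egfr signalling, was the most reduced (log2 -1.57). Of 9 other genes of the Hif system, *Crebbp* alone was called (log2 1.10), and the adjusted p passed 0.01 when library 1, 2, 4 or 6 was left out (0.016 to 0.022).

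**Figure D2:**
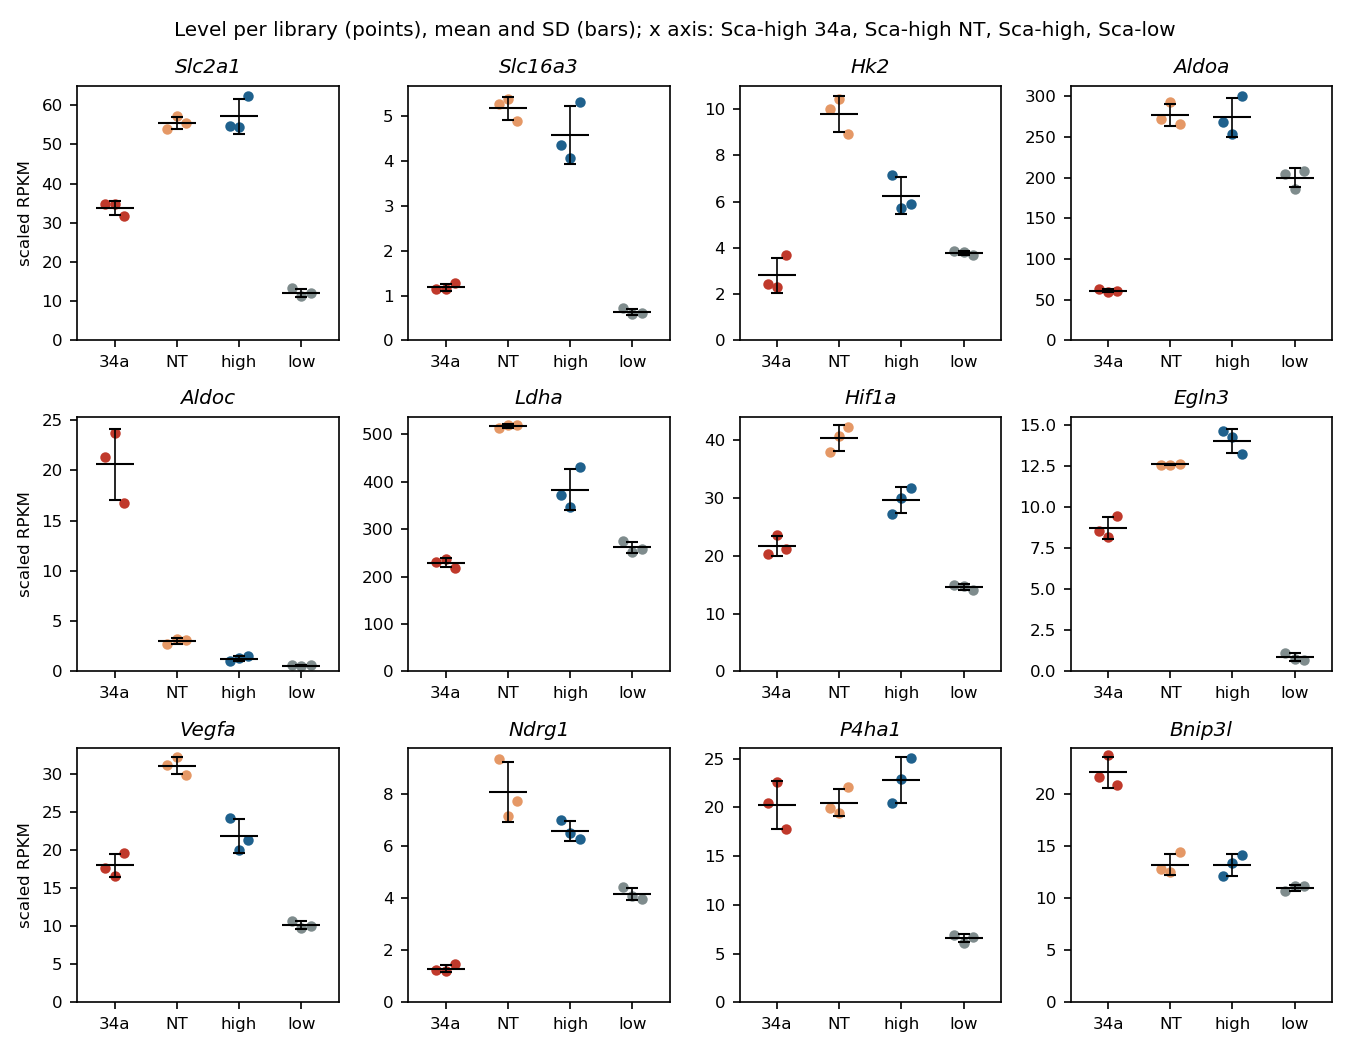
Scaled RPKM (y axis) of 12 members per library (points), with the mean and SD of 3 libraries (bars), in Sca-high 34a (34a), Sca-high NT (NT), Sca-high (high) and Sca-low (low) cells. *Aldoc* and *Bnip3l* are highest in the 34a libraries, *P4ha1* averages 20.3 to 22.8 RPKM in the 3 Sca-high groups, and *Egln3* stands at 0.711 to 1.14 RPKM in Sca-low libraries.

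After miR-34a was induced, most of the members that were called were lower. Of 34 tested members, 16 were lower in Sca-high 34a than in Sca-high NT cells and 3 were higher, against 21.4% and 17.5% of all tested genes called lower and higher. The median of the members was -0.42, against -0.03 for all tested genes. Transporters were lower in 3 of 3 cases, glycolytic enzymes in 7 of 15 with 2 higher, oxygen-sensing genes in 2 of 3, and other hypoxia genes in 4 of 11 with 1 higher. The proliferation markers *Mki67* and *Top2a* summed to 8.69 to 9.30 RPKM in Sca-high 34a libraries, against 127 to 143 RPKM in Sca-high NT libraries, and the basal markers to 430 to 498 RPKM, against 1416 to 1568 RPKM, with all 4 basal genes detected. The part of either in these changes was not tested. In these bulk libraries fewer cells of a type and less RNA per cell cannot be told apart. Without libraries 3 and 12, 16 of 33 tested members were lower and 3 higher.

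*Slc16a3* had 1.14, 1.14 and 1.27 RPKM in Sca-high 34a libraries, against 5.26, 5.37 and 4.88 RPKM in Sca-high NT libraries (log2 -2.04, SE 0.10, adjusted p = 9e-09). Its mean of 1.18 RPKM in Sca-high 34a libraries lay above each Sca-low library, which averaged 0.641 ± 0.0667 RPKM (SD, n = 3). These groups were not compared in a test. *Slc16a1* had 20.5, 22.3 and 19.8 RPKM in Sca-high 34a libraries, against 34.2, 35.2 and 38.2 RPKM in Sca-high NT libraries, so that both lactate transporters were lower (log2 -0.78, SE 0.07, adjusted p = 2.2e-06). *Slc2a1* had 34.7, 34.8 and 31.6 RPKM in Sca-high 34a libraries, against 53.9, 57.1 and 55.4 RPKM in Sca-high NT libraries (log2 -0.72, SE 0.08, adjusted p = 7.4e-06).

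Isozymes of the same step went opposite ways. *Aldoa*, which carries an 8-base seed match, had 63.3, 59.1 and 60.7 RPKM in Sca-high 34a libraries, against 272, 293 and 266 RPKM in Sca-high NT libraries. It was 4.53-fold lower (log2 -2.18, SE 0.08, adjusted p = 5.5e-10). *Aldoc*, the brain-type aldolase, had 21.3, 23.7 and 16.8 RPKM in Sca-high 34a libraries, against 2.71, 3.23 and 3.15 RPKM in Sca-high NT libraries (log2 2.72, SE 0.16, adjusted p = 3.4e-08). Its share of the aldolase RPKM was 21.7% to 28.6% in Sca-high 34a libraries and 0.985% to 1.17% in Sca-high NT libraries. The sum of both genes was nevertheless lower, at 81.7 ± 3.72 RPKM in Sca-high 34a and 280 ± 14.0 RPKM in Sca-high NT libraries (SD, n = 3 each).

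Phosphofructokinase genes also went opposite ways, while their sum differed by less than its SD. *Pfkm*, the muscle-type gene, had 11.4, 9.46 and 12.7 RPKM in Sca-high 34a libraries, against 5.06, 5.59 and 4.95 RPKM in Sca-high NT libraries (log2 1.09, SE 0.10, adjusted p = 1.4e-06). *Pfkp* had 2.46, 2.27 and 2.39 RPKM in Sca-high 34a libraries, against 5.40, 6.16 and 5.79 RPKM in Sca-high NT libraries (log2 -1.25, SE 0.09, adjusted p = 1.9e-07). *Pfkl* was not called (log2 -0.25), and the sum of the 3 genes averaged 39.6 ± 2.37 RPKM in Sca-high 34a and 41.9 ± 3.04 RPKM in Sca-high NT libraries. *Pfkm* thus made up 28.2 ± 2.75% of it in Sca-high 34a and 12.4 ± 0.220% in Sca-high NT libraries.

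**Figure D3:**
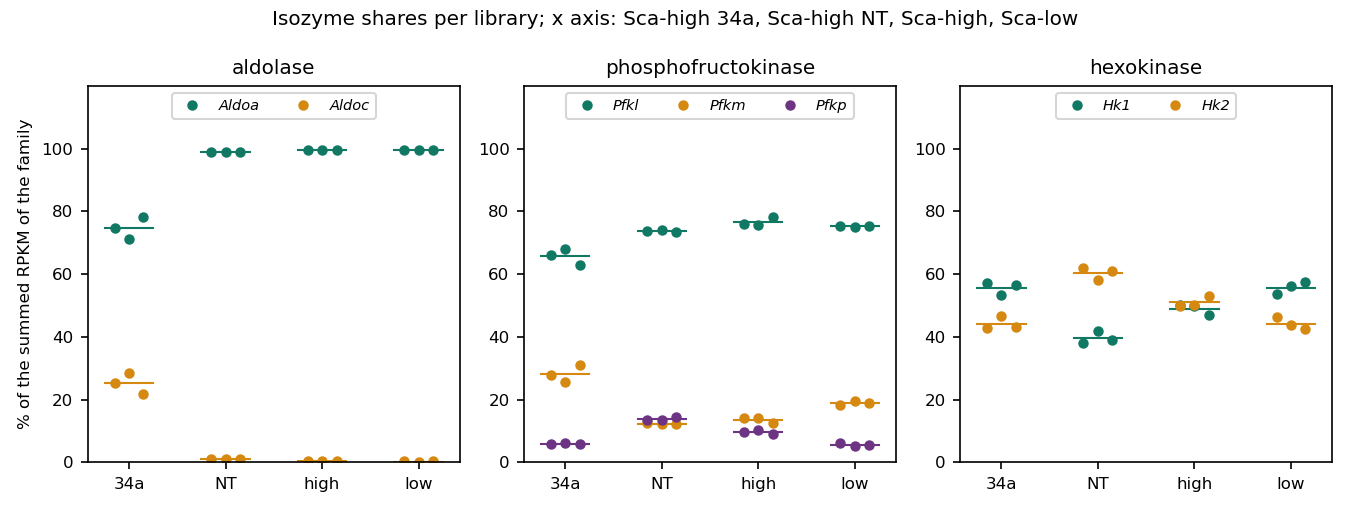
Share of each isozyme in the summed scaled RPKM of its family (y axis, %) per library (points), with the mean of 3 libraries (lines), for aldolases, phosphofructokinases and hexokinases in Sca-high 34a (34a), Sca-high NT (NT), Sca-high (high) and Sca-low (low) cells. *Aldoc* takes 21.7% to 28.6% of the aldolase sum in 34a libraries and at most 1.17% elsewhere.

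*Hk2* had 2.44, 2.29 and 3.69 RPKM in Sca-high 34a libraries, against 9.99, 10.4 and 8.90 RPKM in Sca-high NT libraries (log2 -1.79, SE 0.15, adjusted p = 8.5e-07). All 3 induced libraries lay below all 3 uninduced ones, and library 12 stood above the other two. *Hk1* was also lower (log2 -0.87, SE 0.19, adjusted p = 0.0019), but without library 8 its adjusted p was 0.013 and without library 11 it was 0.01, which ends the call. The call of *Hk1* also ended with only the 2 compared groups in the model. *Ldha*, with its 8-base seed match, had 232, 237 and 218 RPKM in Sca-high 34a libraries, against 513, 519 and 521 RPKM in Sca-high NT libraries (log2 -1.18, SE 0.09, adjusted p = 3e-07). *Gapdh* (log2 -0.61, SE 0.11, adjusted p = 0.00042) and *Eno1* (log2 -0.61, and -0.49 without library 11, which ends the call) were lower, and so was the copy *Eno1b* (log2 -0.57). *Eno1* also lost the call with a pseudocount of 1. *Tpi1*, *Pgk1*, *Pgam1*, *Gpi1* and *Eno2* were not called, with log2 fold changes of -0.38, -0.33, -0.36, -0.09 and -0.13.

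*Hif1a* had 20.4, 23.6 and 21.2 RPKM in Sca-high 34a libraries, against 37.9, 40.8 and 42.4 RPKM in Sca-high NT libraries. The groups did not overlap (log2 -0.89, SE 0.08, adjusted p = 1.1e-06). *Egln3* was lower by 0.53 on the log2 scale (SE 0.14, adjusted p = 0.0048), close to the threshold. It was no longer called without library 3, 7, 8, 9, 10 or 11, without scaling, with upper quartile or median of ratios scaling, with no filter, with a pseudocount of 1 or with limma-voom, which makes 12 alternatives (log2 -0.50 to -0.43). *Egln1* was not called (log2 -0.36).

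*Ndrg1*, a stress-response gene with 2 seed matches in its 3′ UTR, had 1.23, 1.20 and 1.45 RPKM in Sca-high 34a libraries, against 9.34, 7.13 and 7.73 RPKM in Sca-high NT libraries. With a log2 fold change of -2.54 (SE 0.10, adjusted p = 1.3e-09) it was the most reduced of the tested members and lay below the 4.15 ± 0.243 RPKM of Sca-low cells. *Vegfa* had 17.7, 16.7 and 19.7 RPKM in Sca-high 34a libraries, against 31.2, 32.3 and 29.9 RPKM in Sca-high NT libraries (log2 -0.79, SE 0.08, adjusted p = 5.8e-06). *P4ha2* (log2 -0.97) and *Ankrd37* (log2 -0.76) were lower as well, whereas *P4ha1* was not called, at 20.3 ± 2.43 RPKM in Sca-high 34a and 20.5 ± 1.38 RPKM in Sca-high NT libraries (SD, n = 3 each). With a pseudocount of 1 *Ankrd37* lost the call. *Bnip3l* was the third member called higher, with 21.7, 23.8 and 20.9 RPKM in Sca-high 34a libraries, against 12.8, 12.5 and 14.4 RPKM in Sca-high NT libraries (log2 0.74, SE 0.08, adjusted p = 6.4e-06). *Bnip3*, *Kdm3a*, *Mxi1*, *Ero1l*, *Ddit4*, *Pdk1* and *Pfkfb4* were not called, with log2 fold changes of -0.28, -0.45, -0.34, 0.01, 0.55, -0.31 and 0.02.

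Lower members were found with and without a seed match. Of 15 tested members with a match, 7 were lower and 0 higher after miR-34a, with a median of -0.38, and of 19 without a match, 9 were lower and 3 higher, with a median of -0.45. Of all 2371 tested genes with a match, 647 (27.3%) were lower, against 46.7% of the members with a match. A match stood in 29.7% of all genes called lower, against 23.2% of all tested genes. In the members called lower it stood in 43.8%, against 44.1% of the tested members. The median length of the UTR was 1141 bases in all genes called lower and 1543 bases in the members called lower. *Pdk1*, with an 8-base and a 7-base match, had 3.26, 3.50 and 2.89 RPKM in Sca-high 34a libraries, against 3.86, 3.91 and 4.22 RPKM in Sca-high NT libraries, and was not called.

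The other lists were counted after miR-34a as well, where 17.5% of all tested genes were higher and 21.4% were lower. Of 31 other hypoxia targets, 12 were lower and 1 was higher. The most reduced of them, *Anln*, had 4.43, 4.15 and 4.47 RPKM in Sca-high 34a libraries, against 51.0, 49.4 and 52.1 RPKM in Sca-high NT libraries (log2 -3.52). *Anln* encodes anillin, a protein of cytokinesis. *Angptl4*, a secreted inhibitor of lipoprotein lipase, had 68.7, 71.3 and 59.1 RPKM in Sca-high 34a libraries, against 7.54, 7.33 and 7.26 RPKM in Sca-high NT libraries (log2 3.15, SE 0.10, adjusted p = 9e-11). Of the 12 tested genes on the list of other glycolysis isozymes, regulators and family members, 5 were higher and 1 was lower. *Ldhd*, a mitochondrial dehydrogenase of D-lactate, had 2.19, 2.02 and 1.98 RPKM in Sca-high 34a libraries, against 0.358, 0.306 and 0.321 RPKM in Sca-high NT libraries (log2 2.34), and *Eno3* was lower (log2 -0.58, and -0.44 without library 12, which ends the call). For *Ldhd*, Sca-high NT differed from Sca-high cells by -0.10, and Sca-low cells lay 0.58 below Sca-high cells. It thus passed the filter only through the Sca-high 34a libraries, where it was then called higher. *Eno3* also lost the call with upper quartile scaling. Of 20 genes of pyruvate entry and the TCA cycle, 2 were higher, with the mitochondrial pyruvate carrier *Mpc1* at a log2 fold change of 0.95, and 1 was lower, the phosphatase *Pdp2* (log2 -0.58, and -0.49 without library 11, which ends the call). *Pdp2* also lost the call with upper quartile scaling and with a pseudocount of 1. Of the 9 genes of the Hif system 1 was called, *Vhl* (log2 0.70), which marks hydroxylated Hif1α for destruction, and of the 10 of the pentose phosphate list 1 was called, *Pcx* (log2 0.55, and 0.50 without library 12, which ends the call). *Pcx* also lost the call with a pseudocount of 1.

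The comparisons of Sca-high with Sca-low cells and of Sca-high 34a with Sca-high NT cells share no library. Their fits did share the scaling, the filter and the estimate of the spread, so their calls are not independent. Both calls were made for 15 members that were higher in Sca-high cells, of which 13 were lower after miR-34a and 2, *Pfkm* and *Aldoc*, were higher. The 13 make up 50% of the 26 members that were higher in Sca-high cells and 81.2% of the 16 that were lower after miR-34a. Over all tested genes, 465 were both, which is 22% of the 2111 higher in Sca-high cells and 20.5% of the 2268 lower after miR-34a. The 50% stands beside 16 lower of all 34 tested members, and the 81.2% beside 26 higher of the 34. The 22% stands beside 21.4% of all tested genes lower after miR-34a, and the 20.5% beside 19.9% higher in Sca-high cells. A link between the 2 calls beyond these shares was not tested. The 13 members are *Slc2a1*, *Slc16a3*, *Hk2*, *Pfkp*, *Gapdh*, *Eno1*, *Ldha*, *Hif1a*, *Egln3*, *Ndrg1*, *Ankrd37*, *Vegfa* and *P4ha2*. The number was 9 to 14 over 23 alternative settings and left-out libraries at the same thresholds. *Gapdh*, *Hif1a*, *Hk2*, *Ndrg1*, *P4ha2*, *Slc2a1* and *Vegfa* had both calls under each of these, whereas *Ankrd37*, *Egln3*, *Eno1*, *Ldha*, *Pfkp* and *Slc16a3* were not called, or not tested, in at least 1 comparison under at least 1 of them. A further 11 members were higher in Sca-high cells and not called after miR-34a. Among these were *Pdk1*, *Eno2*, *Bnip3*, *P4ha1* and *Ddit4*, whose differences between Sca-high and Sca-low cells were 1.77 or more on the log2 scale. Of these, *Eno2* had passed the filter only through the Sca-high libraries. *Slc16a1*, *Hk1* and *Aldoa* were lower after miR-34a and not called between Sca-high and Sca-low cells.

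Uninduced cells with the vector were compared with uninfected cells. In Sca-high NT cells 5 of 34 tested members were higher than in uninfected Sca-high cells and 3 were lower, against 10.4% and 11.1% of all tested genes called higher and lower, and the median was 0.04, against 0.01 for all tested genes. The luminal markers summed to 4.29 to 5.10 RPKM in Sca-high NT libraries, against 12.7 to 15.0 RPKM in Sca-high libraries, with *Krt8*, *Krt18* and *Epcam* lower (log2 -0.68, -1.76 and -1.89). Of the basal markers *Acta2* was lower (log2 -1.16), while *Krt5*, *Krt14* and *Trp63* were not called (log2 0.01, 0.14 and -0.21). Of the proliferation markers *Mki67* was lower (log2 -0.55) and *Top2a* was not called (log2 -0.26). Of the immune markers *Cd68* was higher (log2 0.58). *Ptprc* was too low to be tested, with a mean of 0.00761 RPKM in Sca-high NT and 0.0175 RPKM in Sca-high libraries. The part of all these markers in the result was not tested. *Aldoc* was higher before any induction, with 2.71, 3.23 and 3.15 RPKM in Sca-high NT libraries, against 1.00, 1.29 and 1.52 RPKM in Sca-high libraries (log2 1.21, SE 0.16, adjusted p = 8.7e-05). *Slc16a1*, *Hk2*, *Pfkp* and *Vegfa* were higher by 0.61, 0.64, 0.57 and 0.51 on the log2 scale, and *Eno2*, *Mxi1* and *Ankrd37* were lower, with -0.75, -0.61 and -0.60. Here too *Eno2* was tested only through its level in Sca-high libraries. *Hk2* lost the call without library 2, 3, 7 or 8 (log2 0.56 to 0.60) and *Vegfa* without any one of libraries 2 to 8, 11 and 12 (log2 0.44 to 0.50), and the count of higher members was 3 without library 2, 3, 7 or 8. *Vegfa* also lost it without scaling, with upper quartile scaling, at 1 RPKM in every library, and with a pseudocount of 1. With that pseudocount *Pfkp*, *Eno2*, *Mxi1* and *Ankrd37* lost the call as well.

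Set against uninfected Sca-high cells, Sca-high 34a cells had 16 members lower and 3 higher of 34 tested, against 25.3% and 22.1% of all tested genes called lower and higher. The median was -0.45, against -0.02 for all tested genes. This comparison shares its libraries with those above, so its values are given beside them and not as further support. *Aldoc*, *Pfkm* and *Bnip3l* were the 3 higher members (log2 3.92, 1.04 and 0.74). *Ndrg1* (log2 -2.26), *Aldoa* (log2 -2.16) and *Slc16a3* (log2 -1.86) were the most reduced. *Hif1a*, *Gapdh* and *Vegfa*, called lower against Sca-high NT cells, had log2 fold changes of -0.45, -0.46 and -0.28 against uninfected cells and were not called, and *Slc16a1* had -0.17. *Eno2* (log2 -0.88), *Egln1* (log2 -0.82), *Kdm3a* (log2 -0.84) and *Mxi1* (log2 -0.95) were called here. Of these, *Eno2* was tested only through its level in Sca-high libraries and lost the call with a pseudocount of 1. *Hk1* (log2 -0.77) lost the call without library 1, 10 or 11 (log2 -0.64, -0.72 and -0.56) and *P4ha2* (log2 -0.57) without library 11 (log2 -0.48). *Hk1* also lost it with no filter and with only the 2 compared groups in the model. *P4ha2* also lost it with median of ratios scaling, no filter or a pseudocount of 1.

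**Figure D4:**
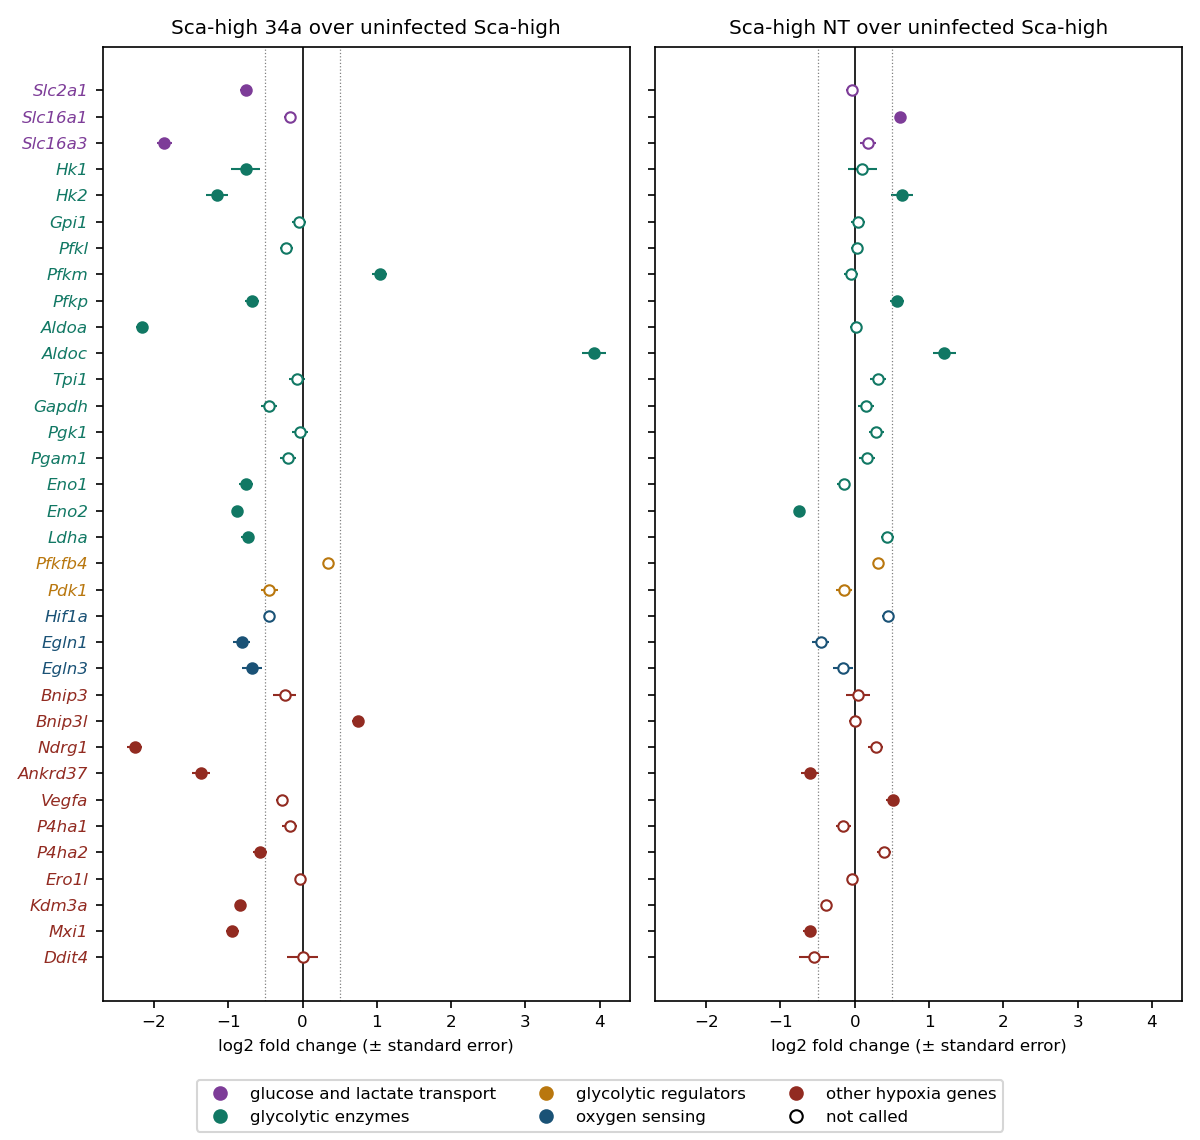
Log2 fold change (x axis, with its standard error) of the 34 tested members over uninfected Sca-high cells, for Sca-high 34a cells (left) and Sca-high NT cells (right). Filled points passed both thresholds; on the left 3 lie right of 0 and 16 left, and on the right 5 lie right and 3 left, and the Sca-high libraries are the same in both panels.

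The 5 members that were not tested reached 1 RPKM in fewer than 3 libraries. *Adm*, the vasodilator adrenomedullin, was covered by 1 to 4 reads in Sca-high 34a libraries and 3 to 6 reads in the other libraries. *Slc2a3*, the neuronal glucose transporter Glut3, stood at 0.0614 to 0.161 RPKM over all 12 libraries, with overlapping groups. *Car9*, a carbonic anhydrase often used as a marker of hypoxia, had 0.490, 0.422 and 0.368 RPKM in Sca-high libraries, against 0.218, 0.209 and 0.289 RPKM in Sca-low libraries. *Ldhb*, the heart-type lactate dehydrogenase, was higher in each Sca-low library, with 0.272, 0.192 and 0.339 RPKM in Sca-high libraries, against 0.770, 1.03 and 0.797 RPKM in Sca-low libraries. *Ldha* made up 99.6% or more of the lactate dehydrogenase RPKM in each library. *Pfkfb3*, the main inducible activator of phosphofructokinase, had 0.282, 0.242 and 0.360 RPKM in Sca-high 34a libraries and 0.433, 0.536 and 0.431 RPKM in Sca-high NT libraries, against 1.11, 1.04 and 0.797 RPKM in uninfected Sca-high libraries. The gene listed under *Pkm2* in the selection appears in the table by its current symbol, *Pkm*, and was not counted as a member. It had 716, 751 and 596 RPKM in Sca-high 34a libraries, against 850, 770 and 849 RPKM in Sca-high NT libraries, more than any member, and was called in none of the 4 comparisons.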

How the data were processed

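RNA-seq libraries of 12 CommaDβ samples were grouped by title. Values deposited by the authors are RPKM for every gene in every library. TopHat2 2.0.6, mm9 and DESeq2 stand in the submitters' processing notes, and the counter of reads is, like the annotation, not given in the sources used here. Deposited means of normalized reads over 6 libraries served only to recover whole reads. All 116959 values above 0 and under 1000 reads (100%) came out whole within 0.1 read. The authors' log2 fold changes, p-values and selection marks were not used. Genes without a symbol (182, at most 0.0942% of reads) were left out.

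Libraries were scaled by an unweighted trimmed mean of M values (trimming 30% of M and 5% of A values at either end). Genes that reached 1 RPKM in 3 or more libraries were fitted with limma 3.58.1 in R 4.3.3 on log2(scaled RPKM + 0.1), with 1 mean per group (8 residual and 3.29 prior degrees of freedom), a trend of the spread, and Benjamini-Hochberg adjustment over all 10586 tested genes. The fit was tested on simulated data. Python 3.11.15 (pandas 2.3.3, numpy 2.4.6) was used to read sequences and matplotlib 3.10.9 for figures.

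The members and lists were chosen with earlier results of these data known. All members are named, those described in full with a standard error and an adjusted p and the others with a fold change or levels alone, and from each neighbouring list the called gene with the largest change in each direction, in the comparisons that share no library; other comparisons of the lists are not reported. Alternatives covered scaling, filter, pseudocount, thresholds, the groups in the model, limma-voom on the recovered reads, and left-out libraries. A motif was counted once where matches overlapped.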

Additional observations from a re-analysis of the deposited data

How the results depend on the processing

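Of 73 called fold changes of members over 4 comparisons, 16 lost the call under at least 1 of 23 alternatives and 0 changed sign. Of the 16, 1 lost it only when a single library was left out. For Sca-high against Sca-low cells the members called higher numbered 17 at a log2 threshold of 1, and those called lower 2 with no filter on low values, 0 at a threshold of 1 and 2 with no fold threshold. Their median was 1.08 without scaling, 0.68 with no filter, 0.75 at 1 RPKM in every library, 0.92 with a pseudocount of 1 and 1.08 with limma-voom on recovered reads. The members both higher in Sca-high cells and lower after miR-34a numbered 2 at a threshold of 1. After miR-34a, against Sca-high NT cells, 6 were lower at a threshold of 1, and the median was -0.35 without scaling, -0.32 with upper quartile scaling, -0.37 with median of ratios scaling and -0.30 with no filter. For Sca-high NT against Sca-high cells, higher members numbered 2 at 1 RPKM in every library, 3 with a pseudocount of 1, 1 at a threshold of 1 and 9 with no fold threshold, and lower members 5 with no filter, 1 at 1 RPKM in every library, 0 with a pseudocount of 1, 0 at a threshold of 1 and 5 with no fold threshold. The counts without 1 library were 3 to 5 higher and 2 to 4 lower, and the median was 0.12 with no filter. For Sca-high 34a against Sca-high cells, 5 were lower at a threshold of 1. The median was -0.41 without scaling, -0.38 with upper quartile scaling, -0.36 with median of ratios scaling, -0.31 with no filter, -0.33 at 1 RPKM in every library, -0.36 without libraries 3 and 12, and -0.51 to -0.40 without 1 library. Fewer members were tested under the stricter filter, and for the other settings the cause was not tested. With no filter 18850 genes were tested, and at 1 RPKM in every library 8441. No paired analysis was possible because the columns carry a running number and no replicate number.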
